A study of Mus musculus with 24 samples.

Results

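The mitosis and G2/M genes are a set of 45 genes whose products drive a cell from the end of DNA replication through chromosome segregation and cytokinesis. They were taken by name from the 46983 gene identifiers of the count tables, and all 45 were found, each under 1 identifier. They were followed in the parietal cortex of C57BL/6 mice in 4 groups of 6 animals. Control mice aged 3 months and 18 months were intact, and the remaining mice of the same ages had their middle cerebral artery occluded permanently (MCAO), a model of ischaemic stroke, with the cortex taken 3 days later. The controls had no operation, so any effect of anaesthesia or surgery is part of each MCAO difference.

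Most cells of the adult cortex do not divide. As background, cells that re-enter the cycle make mitotic proteins only late in the cycle, because their genes are held silent in resting cells by the DREAM repressor complex and are switched on in G2 by B-Myb with MuvB and by FOXM1, acting at promoter elements called the cell cycle homology region (CHR) and the CCAAT box. Cyclin B with CDK1 then starts mitosis, the checkpoint proteins hold it until every chromosome is attached, and the anaphase-promoting complex (APC/C) ends it by marking cyclins and other proteins for destruction. In the injured brain, microglia, blood-derived macrophages, astrocytes, oligodendrocyte precursors, endothelium and fibroblasts are all known to be able to divide. In such whole-tissue RNA, more cells that express a gene and more RNA per cell cannot be told apart.

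Levels are given as counts per M gene counts (CPM, with M for mega) on library sizes scaled by the trimmed mean of M-values (TMM). The libraries read the 3′ end of each transcript, so CPM were not divided by gene length. The libraries held between 3.30 and 13.1 M gene counts (median 5.15 M), library A of the 3-month MCAO mice the most. Folds and adjusted p-values come from edgeR's quasi-likelihood test over 14599 genes that passed the filter on low counts, with a threshold of 0.05, and the ± beside each log2 fold change is the standard error of the fit. Some libraries stood apart from their group. Libraries A and C of the 3-month MCAO mice held more microglia markers than the other 4, library C of the 18-month MCAO mice held the highest member sum, and libraries C, E and F of that group held the most erythroid markers. Without A and C of the 3-month mice, 42 members rose at 3 months and 44 at 18 months, and without C, E and F of the 18-month mice 42 and 41 rose, where the full data gave 43 and 44.

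The members shared promoter letters that the choice of genes did not use. RefSeq windows on GRCm38.p6, 250 bases before to 50 bases after a gene's start, were matched by symbol for 39 of the 45 members. Ccna2, Aurkb, Pbk, Kif20a, Tpx2 and Smc4 had no match in the table. The windows were searched on both strands for the CHR, spelled TTTGAA or TTCGAA, and for CCAAT. CHR letters stood in 30 of the 39 member windows (76.9%) and in 21.7% of all 27025 genes of the table, noncoding genes included. Within -30 to +44 bases of the start, a range chosen after the positions were seen, they stood in 28 members (71.8%) and in 4.79% of all genes. CCAAT stood in 30 members (76.9%) and in 41.1% of all genes. At least 2 CCAAT matches stood in 21 members (53.8%) and in 13.3% of all genes. Both patterns together, CHR letters at -30 to +44 and at least 2 CCAAT matches, stood in 18 members (46.2%) and in 0.622% of all genes. A pair of CCAAT matches whose starts lay 31 to 35 bases apart, also chosen after viewing, stood in 8 members (20.5%) and in 1.53% of all genes.

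The sequences below show the arrangement in 7 members with CHR letters that rose after MCAO, in Spag5, whose level moved least, and in Mad2l1, which has neither pattern in its window. Each runs 5′ to 3′ on the gene's strand from 120 bases before the RefSeq start to 30 bases after it, with CHR and CCAAT matches of either strand in capitals (TTCAAA and ATTGG are the reverse complements). The windows are chr10:69352883-69353032 (minus strand) for Cdk1, chr9:70421525-70421674 (minus) for Ccnb2, chr2:164769809-164769958 (plus) for Ube2c, chr4:124936888-124937037 (minus) for Cdca8 and chr9:61946770-61946919 (minus) for Kif23. They are chr15:99651627-99651776 (minus) for Racgap1, chr11:99024160-99024309 (minus) for Top2a, chr11:78301471-78301620 (plus) for Spag5 and chr6:66535101-66535250 (plus) for Mad2l1.
Cdk1: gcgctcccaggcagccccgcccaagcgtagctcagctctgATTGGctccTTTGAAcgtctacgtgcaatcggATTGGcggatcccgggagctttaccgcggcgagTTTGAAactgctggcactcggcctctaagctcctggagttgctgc
Ccnb2: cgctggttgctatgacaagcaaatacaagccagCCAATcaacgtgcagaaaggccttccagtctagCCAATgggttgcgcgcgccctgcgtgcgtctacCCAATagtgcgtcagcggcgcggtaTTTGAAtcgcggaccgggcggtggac
Ube2c: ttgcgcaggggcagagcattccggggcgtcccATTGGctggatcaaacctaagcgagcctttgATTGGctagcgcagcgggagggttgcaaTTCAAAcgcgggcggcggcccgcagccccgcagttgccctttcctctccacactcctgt
Cdca8: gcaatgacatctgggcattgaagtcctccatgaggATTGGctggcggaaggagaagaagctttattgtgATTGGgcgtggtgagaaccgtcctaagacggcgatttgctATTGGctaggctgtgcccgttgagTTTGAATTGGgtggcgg
Kif23: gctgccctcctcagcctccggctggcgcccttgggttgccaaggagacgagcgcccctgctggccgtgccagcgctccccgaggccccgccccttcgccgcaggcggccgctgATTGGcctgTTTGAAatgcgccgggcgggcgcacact
Racgap1: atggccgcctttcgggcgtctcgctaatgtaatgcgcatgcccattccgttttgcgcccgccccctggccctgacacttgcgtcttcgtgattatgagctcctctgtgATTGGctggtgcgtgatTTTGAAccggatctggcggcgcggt
Top2a: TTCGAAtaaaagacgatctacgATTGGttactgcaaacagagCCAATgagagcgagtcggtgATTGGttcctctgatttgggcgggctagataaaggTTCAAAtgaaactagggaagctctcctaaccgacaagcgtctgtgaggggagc
Spag5: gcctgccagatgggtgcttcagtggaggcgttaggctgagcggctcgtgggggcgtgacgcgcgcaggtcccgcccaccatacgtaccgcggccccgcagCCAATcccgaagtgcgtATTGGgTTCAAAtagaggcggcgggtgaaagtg
Mad2l1: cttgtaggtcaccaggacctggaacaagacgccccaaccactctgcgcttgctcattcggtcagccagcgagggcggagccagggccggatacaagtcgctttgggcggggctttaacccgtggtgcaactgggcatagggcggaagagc
With the start numbered 0, the CHR letters began at -15 in Cdk1, 4 in Ccnb2, -29 in Ube2c, 13 in Cdca8, 2 in Kif23, 5 in Racgap1 and -23 in Top2a. Cdk1, Ccnb2 and Top2a held further CHR matches upstream, that of Ccnb2 at -167, and in Cdca8 the CHR letters and a CCAAT match share bases. Ccnb2 carried 3 CCAAT matches, starting at -87, -54 and -21. Spag5 carried CHR letters at 3 and CCAAT matches at -20 and -3. No CHR letters were found in the windows of Ccnb1, Cks2, Melk, Mad2l1, Cenpe, Nuf2, Birc5, Nusap1 and Ncaph. Melk, Nuf2, Birc5, Nusap1 and Ncaph, like Mad2l1, had no CCAAT match either. The log2 fold changes of these 5 after MCAO at 3 months ran from 1.58 (Melk) to 6.23 (Nusap1). In the GENCODE coordinates Mad2l1 starts at 66535390, beyond the end of its RefSeq window. These matches are letters, and binding at them was not measured.

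**Figure D1:**
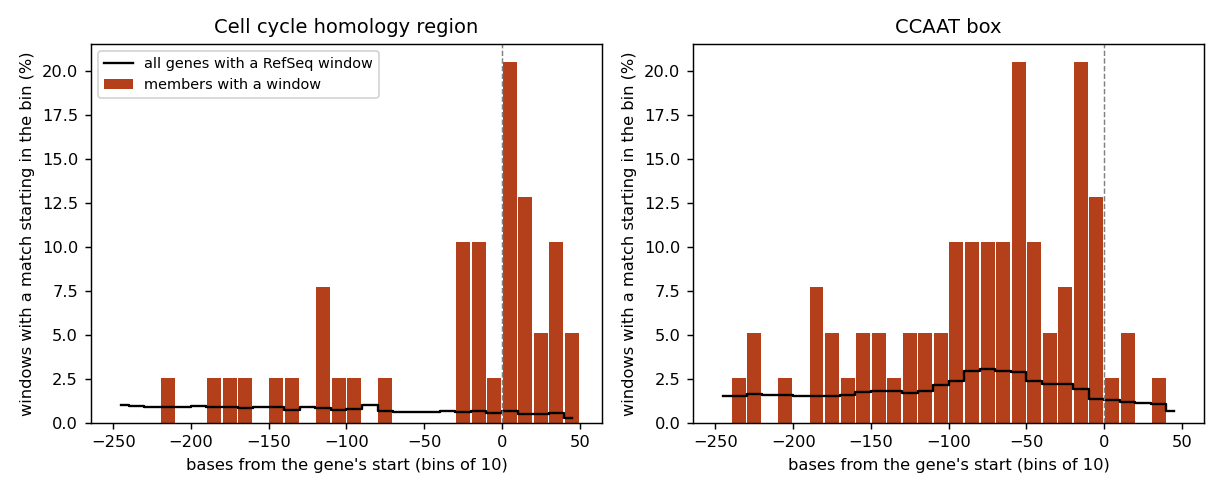
Share of gene windows with a match starting in each bin of 10 bases (y axis, percent) against distance from the gene's start (x axis, bases), for CHR letters on the left and CCAAT on the right; bars are the 39 members with a window and the line is all 27025 genes of the table. The highest CHR bar of the members, 20.5%, starts at the gene's start, where the line is at 0.659%, and the CCAAT bars peak at -60 and -20.

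After MCAO, nearly the whole set rose, from levels close to 0 for most members to levels well above them. In the control cortex the members summed to between 116 and 130 CPM at 3 months and between 93.7 and 117 CPM at 18 months. After MCAO they summed to between 784 and 1213 CPM at 3 months and between 763 and 1384 CPM at 18 months, so neither age overlapped its controls. The make-up of that sum differed too. In controls of 3 months Smc2, Kif22, Smc4, Racgap1 and Plk1 made up 48.7% of it, and after MCAO Top2a, Birc5, Plk1, Smc2 and Cdk1 made up 38.9%.

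At 3 months, 43 of the 44 members tested rose and none fell, against 20.1% of all genes tested that rose. Their median log2 fold change was 3.51, and that of all genes was -0.04. At 18 months all 44 members tested rose, against 23.7% of all genes, with a median of 4.01 beside -0.03 for all genes. Every MCAO library lay above every control library for 42 of the 44 members at 3 months, against 11.1% of all genes tested, and for 41 of 44 at 18 months, against 16.0%. Kif22 and Spag5 overlapped at both ages and Mad2l1 at 18 months. Rises of at least 8-fold were found for 30 members at 3 months and for 33 members at 18 months.

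The filter bears on these counts. It asked for a level of about 1.91 CPM in at least 6 libraries, and 30 of the 44 members reached that only with their MCAO libraries, so those 30 had to be higher after MCAO. The other 14, which control libraries alone would have passed, are Ccnb1, Plk1, Mad2l1, Cenpa, Cenpe, Birc5, Cdca8, Spag5, Kif22, Kif23, Tpx2, Racgap1, Smc2 and Smc4. Of these 14, 13 rose at 3 months with a median log2 fold change of 2.13, and all 14 rose at 18 months with a median of 2.70. The matching share, over all genes that control libraries alone would have passed, was not counted.

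**Figure D2:**
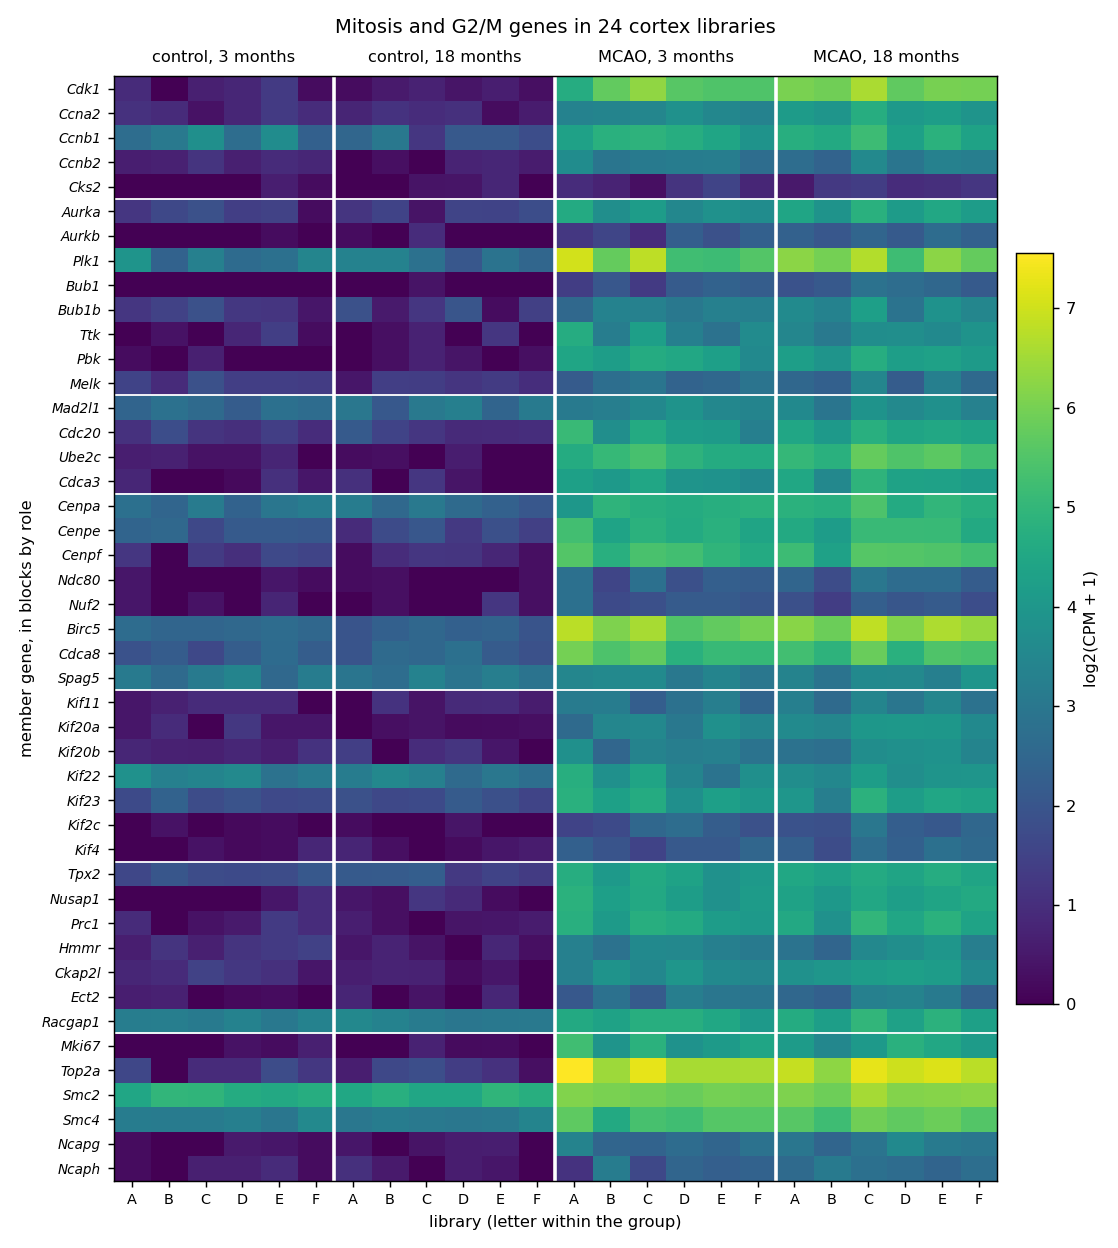
Level of each of the 45 members (rows, in blocks by role) in each of the 24 libraries (columns, lettered within their group), as log2(CPM + 1). Control columns are dark outside a few rows such as Smc2 and Kif22, and MCAO columns are brighter in nearly every row. They are brightest in Top2a, followed by rows such as Birc5, Smc2 and Plk1.

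Among the cyclins and their kinase, Cdk1, the kinase that starts mitosis, rose most. In controls it lay between 0 and 1.45 CPM at 3 months (median 0.674) and between 0.180 and 0.635 CPM at 18 months (median 0.407). The MCAO libraries held between 24.7 and 77.4 CPM at 3 months (median 45.6) and between 51.2 and 95.7 CPM at 18 months (median 62.5). The groups were far apart at both ages, and library A was the lowest of the 3-month MCAO libraries. The log2 fold change was 6.03 ± 0.32 at 3 months (adjusted p = 3.3e-13) and 7.32 ± 0.35 at 18 months (adjusted p = 2.8e-14). Of this role, only Ccnb1 would have passed the filter by control libraries alone. Cdk1, Ccna2 and Ccnb2 therefore had to be higher after MCAO.

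Ccna2 encodes cyclin A, which serves both S phase and entry into mitosis. It lay between 0.300 and 1.45 CPM (median 0.933) in controls of 3 months and between 0.185 and 1.16 CPM (median 0.837) in those of 18 months. Levels after MCAO ran between 9.21 and 13.2 CPM (median 9.89) at 3 months and between 14.0 and 25.2 CPM (median 16.5) at 18 months. All 6 MCAO libraries of 18 months lay above all 6 of 3 months for Ccna2 and for no other member tested. How often that held over all genes tested was not counted. The log2 fold change of Ccna2 after MCAO was 3.41 ± 0.26 at 3 months and 4.50 ± 0.26 at 18 months. Ccnb1 and Ccnb2 encode the B cyclins that activate CDK1. Ccnb1 rose from 7.79 to 22.4 CPM on average at 3 months (log2 fold change 1.54 ± 0.27) and from 3.71 to 24.9 CPM at 18 months (2.71 ± 0.29). Ccnb2 rose by 3.39 ± 0.34 at 3 months and, from 0.360 to 7.47 CPM, by 4.21 ± 0.38 at 18 months. The 3′ end of Ccnb1 shares 50-base words with processed pseudogenes such as Ccnb1-ps, and since reads that align in several places were not counted, its level is uncertain.

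Cks2, a small protein that binds CDK1, was the 1 member left out by the filter. It lay between 0 and 0.543 CPM in controls of 3 months and between 0 and 0.739 CPM in those of 18 months, with 4 and 3 libraries at 0. With MCAO the range was between 0.236 and 1.94 CPM at 3 months (median 0.853) and between 0.427 and 1.60 CPM at 18 months (median 1.16). The groups overlapped at both ages, on 4 and 7 counts in all in the control groups.

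The 8 mitotic kinases all rose at both ages, with a median log2 fold change of 3.91 at 3 months and 4.10 at 18 months. Of these, only Plk1 would have passed the filter by its control libraries alone, so the others had to be higher after MCAO. Plk1, the polo-like kinase that drives centrosome maturation and mitotic entry, had the highest level. It lay between 4.23 and 14.0 CPM in controls of 3 months (median 7.34) and between 3.16 and 9.27 CPM in those of 18 months (median 6.16). Its MCAO libraries lay between 35.1 and 130 CPM at 3 months (median 49.3) and between 36.3 and 102 CPM at 18 months (median 68.0). Libraries A and C held 130 and 112 CPM at 3 months while the other 4 held 53.2 CPM or less. The log2 fold change was 3.10 ± 0.37 at 3 months and 3.38 ± 0.38 at 18 months. Its 3′ end shares 50-base words with the pseudogene Plk-ps1, with the same limit as for Ccnb1.

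Pbk, a kinase of mitotic cells also called TOPK, had the highest log2 fold change of all members at 3 months. Its 6 control libraries of 3 months held 3 counts together, 4 of them at 0, and its controls of 18 months lay between 0 and 0.635 CPM. Following MCAO it was found between 10.9 and 24.1 CPM at 3 months (median 19.6) and between 14.0 and 25.3 CPM at 18 months (median 17.9). On pooled counts the ratio at 3 months was 190, with a 95% counting interval from 64.7 to 922. The fitted log2 fold change was 7.25 ± 0.43 at 3 months and 6.29 ± 0.39 at 18 months.

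Of the other kinases, Bub1 and Aurkb started almost as low. Bub1, a kinase of the spindle checkpoint, had no count in any control library of 3 months and 101 counts after MCAO, at least 26.5-fold higher when 3 counts, summed over the group, are taken as the floor. At 18 months its pooled ratio was 127, with an interval from 22.4 to 5030. Aurkb, the kinase of the chromosomal passenger complex, had 1 count in controls of 3 months, a pooled ratio of 66.9 with an interval from 11.7 to 2674. Aurka, which works at the spindle poles, rose from 1.63 to 14.7 CPM at 3 months (log2 fold change 3.24 ± 0.31). Ttk, the checkpoint kinase MPS1, rose from 0.478 to 13.0 CPM at 3 months (4.57 ± 0.53). The checkpoint protein BubR1, product of Bub1b, had 1.47 CPM in controls and 7.92 CPM after MCAO at 3 months (2.48 ± 0.38). Melk, whose product is a kinase of dividing cells, had the lowest log2 fold change of the 8 at both ages, 1.58 ± 0.31 and 2.35 ± 0.32.

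Among the checkpoint and APC/C genes, Ube2c stood beside Cdk1. Its product is the ubiquitin-conjugating enzyme that works with the APC/C. It lay between 0 and 0.723 CPM in controls of 3 months (median 0.427) and between 0 and 0.526 CPM in those of 18 months (median 0.0902). After MCAO it lay between 23.6 and 40.1 CPM at 3 months (median 26.2) and between 26.7 and 54.0 CPM at 18 months (median 41.0). Its log2 fold change, 6.06 ± 0.33 at 3 months, was the highest of all members at 18 months, at 7.68 ± 0.37 (adjusted p = 2.3e-14). Cdc20, an activator of the APC/C, rose from 1.39 to 18.6 CPM at 3 months and from 1.56 to 20.9 CPM at 18 months. Cdca3, an F-box protein of mitotic entry, rose from 0.393 to 15.7 CPM and from 0.450 to 19.5 CPM. Mad2l1, the checkpoint protein that restrains CDC20, moved far less, with log2 fold changes of 0.99 ± 0.22 and 0.76 ± 0.21 from controls of 5.08 and 6.37 CPM. Only Mad2l1 of these genes would have passed the filter by control libraries alone. Ube2c, Cdc20 and Cdca3 therefore had to be higher after MCAO.

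Of the 8 centromere, kinetochore and passenger genes, 7 rose at 3 months and all 8 at 18 months. Cenpa, Cenpe, Birc5, Cdca8 and Spag5 would have passed the filter by control libraries alone, and the rest had to be higher after MCAO. Birc5 encodes survivin, a subunit of the chromosomal passenger complex. It lay between 4.51 and 5.43 CPM in controls of 3 months (median 4.87) and between 2.89 and 4.76 CPM in those of 18 months (median 3.99). The MCAO libraries held between 44.7 and 109 CPM at 3 months (median 64.8) and between 57.1 and 113 CPM at 18 months (median 78.6). The control libraries of Birc5 differed little among themselves and no MCAO library came near them. Its log2 fold change was 3.85 ± 0.21 at 3 months and 4.44 ± 0.22 at 18 months. Cdca8, which encodes borealin of the same complex, rose from 3.52 to 41.8 CPM at 3 months and from 4.15 to 39.0 CPM at 18 months.

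The kinetochore genes covered a wide range of levels after MCAO. Cenpf, a large kinetochore protein, reached 34.2 CPM at 3 months from 1.32 CPM, and Cenpe, a kinesin that carries chromosomes to the spindle's middle, reached 26.1 CPM from 3.58 CPM. The 3′ end of Cenpf shares 50-base words with the coding genes Irak1 and Ttf1, with the same limit as for Ccnb1. Ndc80 and Nuf2, partners in the complex that grips microtubules, reached 3.98 and 3.47 CPM from 0.154 and 0.232 CPM. At 18 months the 3 control counts of Ndc80 gave a pooled ratio of 45.7 with an interval from 15.4 to 224. Cenpa, the histone that marks centromeres, was already at 6.23 CPM in controls and rose to 24.6 CPM (log2 fold change 1.97 ± 0.21 at 3 months, 2.43 ± 0.21 at 18 months).

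Spag5, which encodes the spindle protein astrin, was the exception. It lay between 4.88 and 9.72 CPM in controls of 3 months (median 7.63) and between 5.56 and 9.21 CPM in those of 18 months (median 6.58). Levels after MCAO ran between 6.91 and 11.3 CPM at 3 months (median 9.85) and between 6.32 and 14.3 CPM at 18 months (median 10.1). The ranges overlapped at both ages. Its log2 fold change was 0.36 ± 0.20 at 3 months (adjusted p = 0.16, not past the threshold) and 0.51 ± 0.20 at 18 months (adjusted p = 0.04). On library sizes set by the spike-in RNA its value at 3 months was -0.14. The call at 18 months was lost in 12 of the 35 alternative settings, among them the fits without library A, B, D or F of the controls and without library C, D or F of the MCAO mice.

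**Figure D3:**
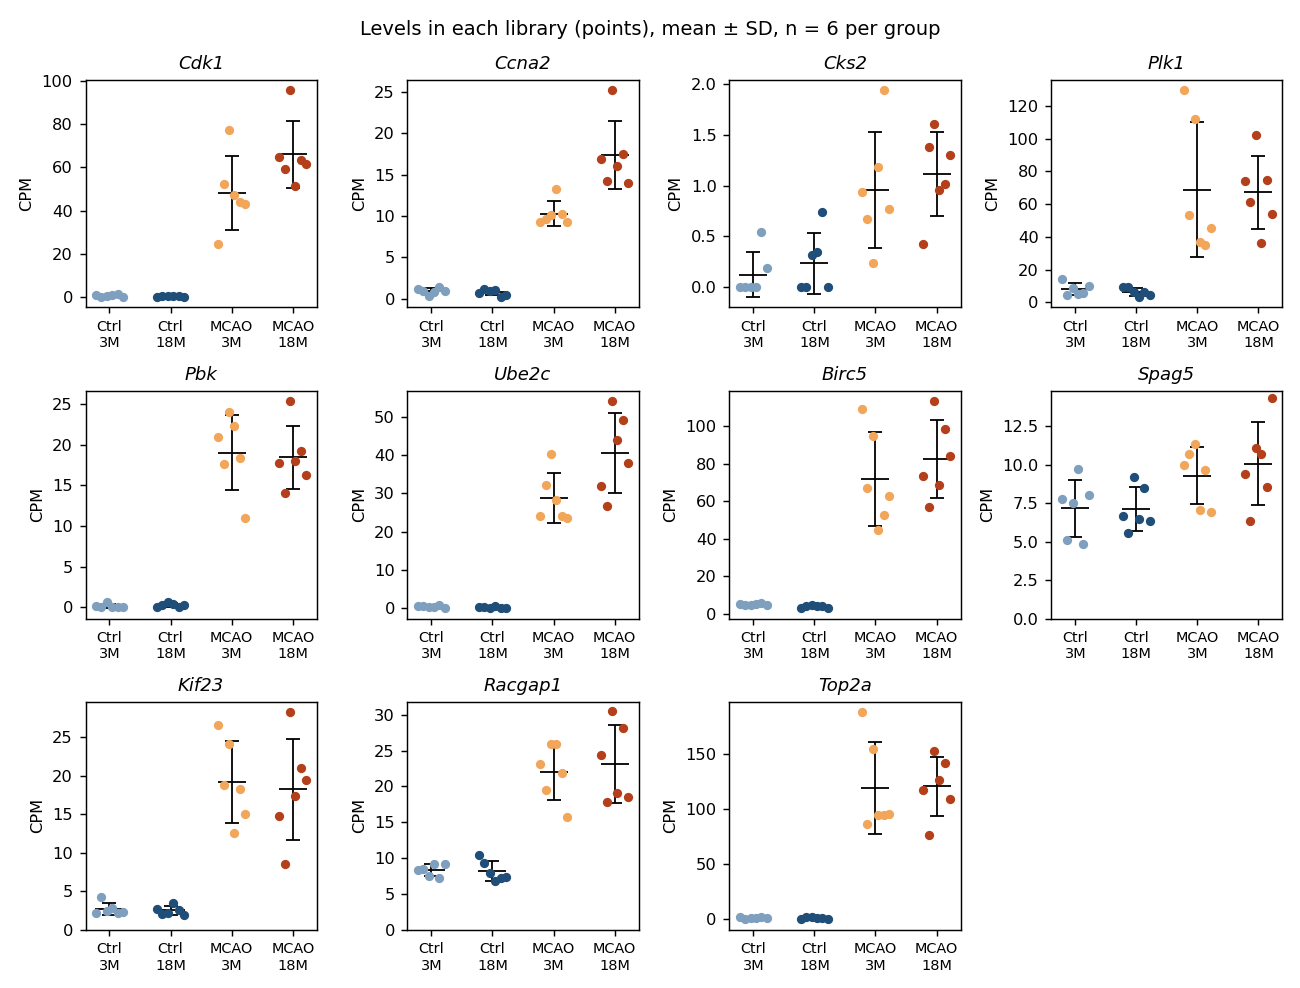
CPM (y axis, linear from 0) in each library (points) of the 4 groups for the 11 members described by their lowest, median and highest library, with the mean and SD of 6 libraries in black. In 9 of the panels MCAO points stand clear of control points, and in the Spag5 and Cks2 panels they overlap.

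All 7 kinesin genes rose at both ages, with medians of 3.48 and 3.60 in log2 fold change. Only Kif22 and Kif23 would have passed the filter by control libraries alone, so the other kinesin genes had to be higher after MCAO. Kif23, a motor of the central spindle needed for cytokinesis, had the highest mean level of the 7 after MCAO, while Kif22 had the highest in controls. Kif23 lay between 2.17 and 4.23 CPM in controls of 3 months (median 2.35) and between 1.96 and 3.51 CPM in those of 18 months (median 2.40). With MCAO the range was between 12.6 and 26.6 CPM at 3 months (median 18.6) and between 8.49 and 28.3 CPM at 18 months (median 18.4). The MCAO libraries all stood above the controls, over a wider range at 18 months. Its log2 fold change was 2.86 ± 0.25 at 3 months and 2.83 ± 0.26 at 18 months.

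Kif11, the motor that separates spindle poles, rose from 0.613 to 6.45 CPM at 3 months (3.37 ± 0.40). Kif20b and Kif4, motors of the late spindle and of chromosome arms, rose by 3.48 ± 0.40 and 3.72 ± 0.46 in log2 at 3 months. Kif2c, which takes microtubules apart at kinetochores, had 3 control counts at each age, with pooled ratios of 30.7 (10.3 to 151) at 3 months and 38.5 (12.9 to 189) at 18 months. Kif20a, another motor of cytokinesis, rose by 3.88 ± 0.34 at 3 months and 6.02 ± 0.41 at 18 months, and its 3′ end overlaps the opposite-strand gene Cdc23. Kif22, a chromosome-arm motor, stood high in controls at 9.34 CPM and reached 14.6 CPM at 3 months (0.66 ± 0.26, adjusted p = 0.045) and went from 7.53 to 13.4 CPM at 18 months (0.85 ± 0.26, adjusted p = 0.0094). Its call at 3 months was lost in 17 of the 35 settings, including the fits that left out any 1 of the control libraries B to F or the MCAO library A or C.

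Of the 7 spindle and cytokinesis genes, all rose at both ages, with medians of 3.46 and 4.54. Tpx2 and Racgap1 alone would have passed the filter by control libraries, so the others had to be higher after MCAO. Racgap1, the partner of Kif23 in the central spindle, was expressed in every control. It lay between 7.23 and 9.21 CPM in controls of 3 months (median 8.38) and between 6.84 and 10.5 CPM in those of 18 months (median 7.64). Its MCAO libraries lay between 15.7 and 26.0 CPM at 3 months (median 22.5) and between 17.8 and 30.6 CPM at 18 months (median 21.7). The groups did not overlap at either age although the rise was modest, 1.40 ± 0.16 and 1.50 ± 0.16 in log2 fold change. 

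Nusap1, a microtubule-bundling protein, rose from 0.220 to 19.3 CPM at 3 months (6.23 ± 0.43) and from 0.487 to 19.7 CPM at 18 months (5.35 ± 0.39). Prc1, which crosslinks the central spindle, rose from 0.680 to 20.8 CPM and from 0.330 to 22.4 CPM. Tpx2, the activator of Aurora A, rose from 2.55 to 18.8 CPM and from 2.57 to 21.6 CPM. Ect2, the exchange factor that starts the cleavage furrow, rose by 4.47 ± 0.54 and 4.26 ± 0.51. Hmmr, a spindle and hyaluronan-binding protein, rose by 2.92 ± 0.33 and 4.54 ± 0.39, and the spindle protein gene Ckap2l by 3.46 ± 0.27 and 5.21 ± 0.31.

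Among the 6 genes of chromosome structure, Top2a was the most abundant member of the set after MCAO. Its product, topoisomerase II alpha, untangles sister chromatids. It lay between 0 and 2.35 CPM in controls of 3 months (median 1.12) and between 0.245 and 2.54 CPM in those of 18 months (median 1.34). Following MCAO it was found between 86.6 and 188 CPM at 3 months (median 95.1) and between 76.8 and 153 CPM at 18 months (median 122). At 3 months libraries A and C, at 188 and 154 CPM, stood above the other 4, which lay between 86.6 and 95.6 CPM. The log2 fold change was 6.45 ± 0.34 at 3 months and 6.53 ± 0.34 at 18 months. Mki67, the gene of the Ki-67 antigen that coats mitotic chromosomes, rose from 0.176 to 21.4 CPM at 3 months (6.59 ± 0.46) and from 0.166 to 18.0 CPM at 18 months (6.78 ± 0.49). Of the 6 genes, only Smc2 and Smc4 would have passed the filter by control libraries alone. Top2a, Mki67, Ncapg and Ncaph therefore had to be higher after MCAO.

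The condensin genes divided by their control level. Smc2 and Smc4, subunits of both condensin complexes, were at 25.6 and 8.32 CPM in controls of 3 months and rose by 1.29 ± 0.12 and 2.28 ± 0.16. Ncapg and Ncaph, subunits of condensin I alone, were at 0.198 and 0.413 CPM and rose by 4.52 ± 0.43 and 3.08 ± 0.51. The 3′ ends of Ncapg and Prc1 overlap Lcorl and Rccd1 on the opposite strand. The strand setting of the counting was not given in the sources used here. How reads over the shared ends of Kif20a, Ncapg and Prc1 were assigned is therefore not known, and their levels are uncertain. Over all libraries the partners Cdc23, Lcorl and Rccd1 averaged 40.4, 51.0 and 4.34 CPM. In all, 9 members overlap an opposite-strand coding gene somewhere along their length.

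**Figure D4:**
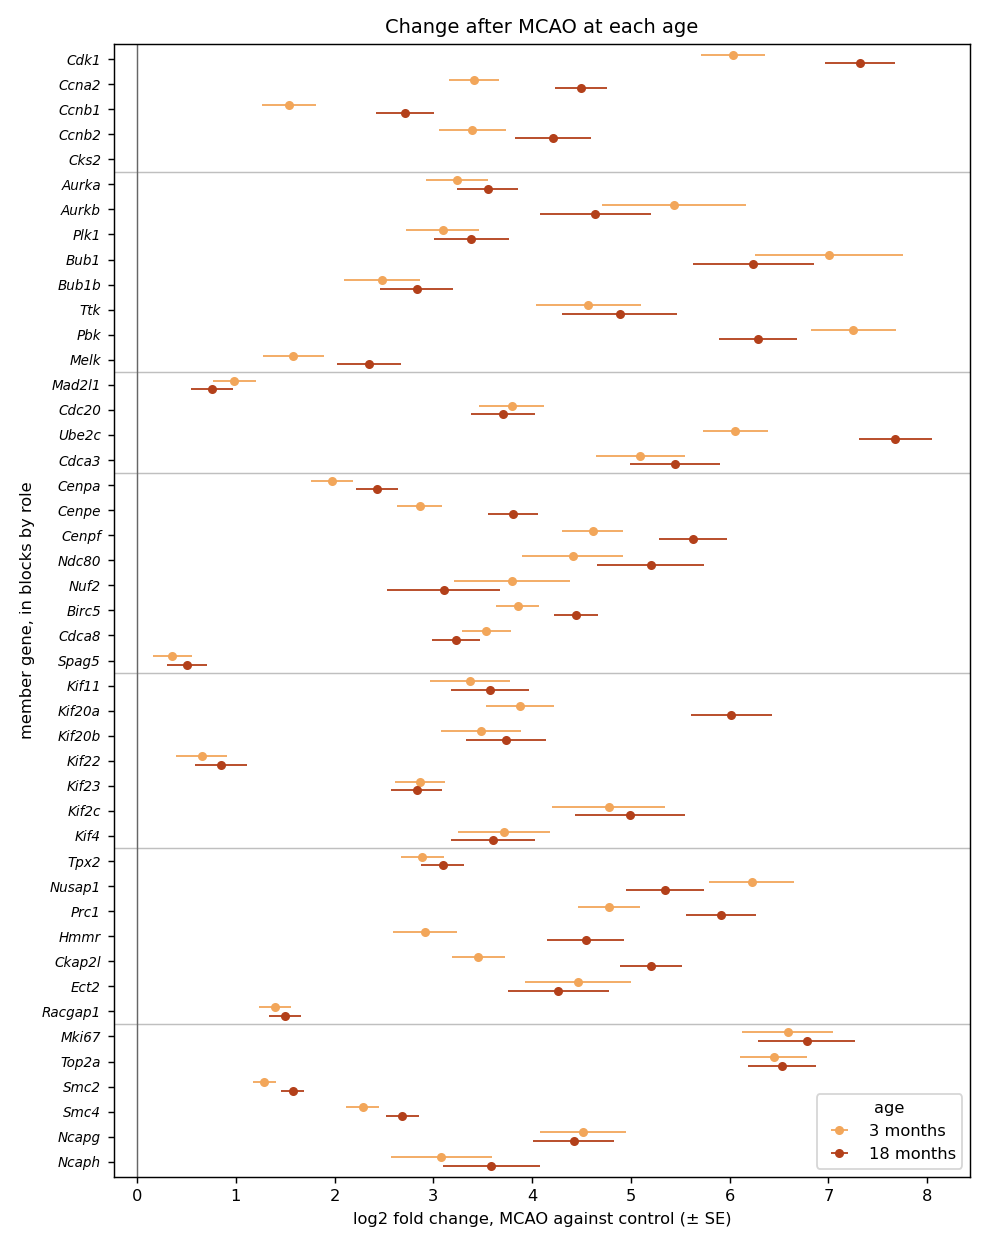
Log2 fold change of MCAO against control (x axis) with its standard error for the 44 members tested (rows, in blocks by role), at 3 months and 18 months; Cks2 was not tested. Points run from 0.36 for Spag5 to 7.68 for Ube2c, with Spag5, Kif22 and Mad2l1 nearest to 0.

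Across the set, the fold followed the control level, which sets its denominator. The 9 members at 5 CPM or more in controls had a median log2 fold change of 1.40 at 3 months and 1.57 at 18 months. The 11 members at 1 to 5 CPM had medians of 3.24 and 3.55, and the 24 tested members below 1 CPM had medians of 4.49 and 4.94. In added CPM the order differed, with medians of 14.6, 17.2 and 7.69 CPM for the 3 classes at 3 months and of 21.2, 19.4 and 9.17 CPM at 18 months. This is a description without a test.

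No member passed the threshold between 18 and 3 months in control cortex, against 0.603% of all genes tested. With edgeR 5 of the 44 members had an unadjusted p under 0.05 (11.4%), close to the 9.09% of all genes tested. At the threshold on the adjusted p, DESeq2 and limma-voom, like edgeR, called none. A positive log2 difference was found for 16 members (36.4%) and for 51.4% of all genes, with medians of -0.05 and 0.01. The 5 were Ccnb1 (-1.01 ± 0.31), Cenpe (-0.88 ± 0.29), Kif20a (-1.63 ± 0.63), Hmmr (-1.50 ± 0.50) and Ckap2l (-1.33 ± 0.43), all lower at 18 months, chosen after their values were seen.

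After MCAO, 1 member, Ccna2, was higher at 18 than at 3 months, against 10.9% of all genes tested that passed the threshold in either direction. It averaged 17.3 ± 4.11 CPM (SD) at 18 months and 10.3 ± 1.48 CPM at 3 months, a log2 difference of 0.76 ± 0.19 (adjusted p = 0.0094). The call was lost without the 18-month libraries C, E and F. Over the 44 members the median difference was 0.20, with 35 above 0 (79.5%), beside a median of 0.02 and 52.7% above 0 over all genes. The members' median was -0.01 without those 3 libraries, 0.30 without the 3-month libraries A and C, and 0.44 on library sizes set by the spike-in RNA, where that of all genes was 0.23. Libraries C and E of 18 months and A and C of 3 months held the highest member sums of their groups. Leaving them out therefore shifts the median through the choice of libraries. Cdk1 and Ube2c differed by 0.47 ± 0.20 (adjusted p = 0.14) and 0.51 ± 0.19 (adjusted p = 0.09), short of the threshold. Top2a differed by 0.02 ± 0.23 and Plk1 by -0.04 ± 0.32, so for these a difference of either sign lies within the error. limma-voom called 5 members, and without the 3-month libraries A and C edgeR also called 5. Without library C of the 3-month mice edgeR called 3, and without library B of the 18-month mice 2.

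The MCAO effect itself did not differ between the ages past the threshold for any member, against 0.0822% of all genes tested. With edgeR 7 members had an unadjusted p under 0.05 (15.9%, against 10.7% of all genes tested). At the threshold on the adjusted p, DESeq2 and limma-voom, like edgeR, called none. The smallest p belonged to Ckap2l, whose log2 rise was larger at 18 months by 1.75 ± 0.48 (adjusted p = 0.13). The median of this difference over the members was 0.29, beside 0.01 for all genes. Both ages were compared with their own controls, and 25 of the 45 members had controls under 1 CPM, where few counts set the fold.

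Libraries within the MCAO groups were uneven. At 3 months libraries A and C summed to 1213 and 1157 CPM over the members, and the other 4 to between 784 and 834 CPM. Library A was the highest for 21 of the 45 members and the lowest for 10, while over all genes it was highest in 31.1% and lowest in 28.3%. Library A had the highest sums of mitotic kinases, 210 CPM, and of chromosome-structure genes, 354 CPM, of the 6 libraries, and the lowest sum of cyclins, CDK and Cks genes, 65.8 CPM, against 72.4 to 124 CPM in the others. At 18 months library C was the highest for 29 members and library B the lowest for 33, against 23.4% and 16.7% of all genes. Their member sums were 1384 and 763 CPM.

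**Figure D5:**
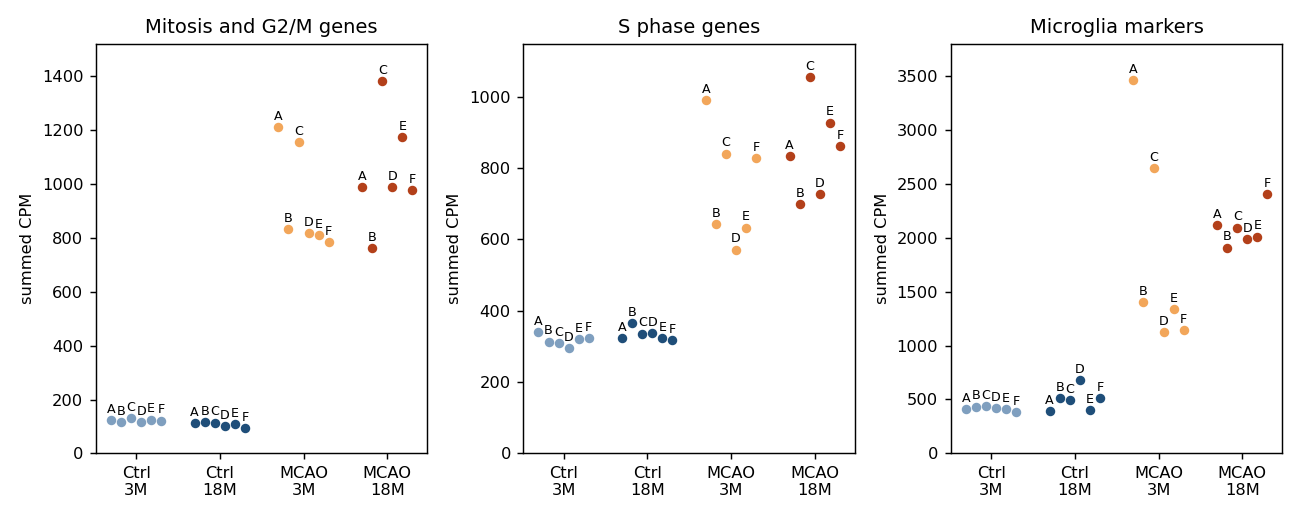
Summed CPM (y axes, linear from 0) of the 45 members, of the S phase list and of the microglia marker list in each library, lettered within its group. All 3 sums are higher in every MCAO library than in any control library, and libraries A and C of the 3-month MCAO mice are the highest of their group in each panel.

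The marker lists of several cell types rose with the members, and those of microglia, macrophages, endothelium and fibroblasts are given first. All 10 microglia markers rose at both ages, and their sum went from 381 to 439 CPM in controls of 3 months to 1127 to 3462 CPM after MCAO, and from 393 to 677 CPM to 1909 to 2404 CPM at 18 months. Libraries A and C of the 3-month MCAO mice held 3462 and 2648 CPM and the other 4 at most 1405 CPM. All 9 tested of 11 monocyte and macrophage markers rose at both ages, 6 of them having passed the filter only with the MCAO libraries, from sums of at most 99.5 CPM in controls to 259 to 1391 CPM and 721 to 1387 CPM. Chil3 and Cd5l were at 0 in controls of 3 months, and Ly6c2 and Arg1 in those of 18 months. Of the 8 endothelial markers 7 and 8 rose, with sums of 370 to 757 and 584 to 971 CPM after MCAO against at most 306 CPM in controls. Of the 8 fibroblast markers, 3 of which passed the filter only with the MCAO libraries, 7 rose at each age, with sums of 172 to 787 and 249 to 1571 CPM against at most 56.8 CPM. Their part in the members' rise was not tested.

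Some of the other marker lists rose as well, that of oligodendrocyte precursors among them, and others were mixed or fell. Of 7 tested markers of pericytes and smooth muscle, 5 rose at 3 months and 6 at 18 months, and none fell. Among them Tagln passed the filter only with the MCAO libraries. Of 8 markers of mature oligodendrocytes, 4 rose at 3 months and 6 at 18 months, and none fell. Of the 8 markers of oligodendrocyte precursors 6 rose at 3 months and 7 at 18 months, and none fell. Their sums were 360 to 552 and 419 to 575 CPM after MCAO against at most 295 CPM in controls. Of 10 astrocyte markers 6 rose at each age, among them Gfap, Vim and Nes, and the transporter gene Slc1a2 and Aldoc fell. The astrocyte sum averaged 4794 CPM in controls and 4136 CPM after MCAO at 3 months, and 5028 and 4687 CPM at 18 months. Of 6 tested markers of neural progenitors and neuroblasts, Sox11 rose and Dcx and Dlx2 fell at each age. Of 9 neutrophil markers 5 were not tested, and S100a8, S100a9 and Cxcr2 passed the filter only with the MCAO libraries, so that they had to be higher there. Mmp9, which passed by its control libraries alone, rose by 2.13 ± 0.55 and 3.43 ± 0.57 in log2. The neutrophil sum was at most 9.06 CPM in controls, 14.0 to 77.3 CPM after MCAO at 3 months and 40.1 to 156 CPM at 18 months. Of 6 erythroid markers 4 were tested, 3 of which passed only with the MCAO libraries, and 2 rose at 3 months and 4 at 18 months. The erythroid sum was at most 7.51 CPM in controls of 3 months and 64.6 CPM in those of 18 months, and 4.85 to 54.9 and 38.4 to 1283 CPM after MCAO. The T, B and NK cell markers summed to at most 6.99 CPM in any library, with none passing the filter. Of 10 neuronal markers 6 fell at 3 months and 9 at 18 months. Markers of choroid plexus and ependyma summed to 805 CPM in control library D and 1433 CPM in MCAO library C of the 3-month mice and to at most 60.6 CPM elsewhere, and without both libraries 42 members rose at 3 months and 44 at 18 months. The part of these cells in the members' levels was not tested.

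Genes of the neighbouring steps of the cycle rose as well. Of 33 tested genes of DNA replication and S phase, 24 rose at 3 months and 30 at 18 months and none fell, with median log2 fold changes of 1.39 and 1.53. Of these 33, 10 passed the filter only with the MCAO libraries, and of the other 23, 15 rose at 3 months and 20 at 18 months. The clamp-associated Pclaf rose by 6.90 ± 0.44 and 7.76 ± 0.50, while Pcna, the replication clamp, rose by 1.26 ± 0.13 and 1.08 ± 0.13. Of 60 other tested mitosis genes, 42 rose and 1 fell at 3 months, and 41 rose and 2 fell at 18 months, with medians of 1.71 and 2.05. Of these 60, 27 passed the filter only with the MCAO libraries, and of the other 33, 16 rose and 1 fell at 3 months and 14 rose and 2 fell at 18 months. The kinetochore gene Spc25 rose by 5.09 ± 0.35 and 6.27 ± 0.40, and Cit, a kinase of cytokinesis that neurons also express, fell by 0.40 and 0.63 on the log2 scale. The condensin II gene Ncaph2 fell by 0.39 at 18 months. Cdc25b, a phosphatase that activates CDK1, had values of -0.03 ± 0.19 and -0.05 ± 0.19.

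Of 16 G1 cyclins, kinases and E2F genes, 5 of which passed the filter only with the MCAO libraries, 10 rose at 3 months and 12 at 18 months. Of the other 11, 6 rose at 3 months and 7 at 18 months. Ccnd1, the D cyclin that opens G1, rose by 1.56 ± 0.17 and 1.91 ± 0.18. Of 14 tested CDK inhibitors and related brakes, 6 rose at 3 months and 8 at 18 months, and Cdkn2d fell by 0.51 on the log2 scale at 3 months. Among the 14, Cdkn2a passed the filter only with the MCAO libraries. Of the other 13, 5 rose at 3 months and 7 at 18 months. Over all genes tested, 20.1% rose at 3 months and 23.7% at 18 months. Cdkn1a, the inhibitor p21, rose by 1.35 ± 0.20 and 1.57 ± 0.20, and Cdkn1b, the inhibitor p27, had values of 0.10 ± 0.10 and 0.12 ± 0.10.

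Scaling by the spike-in RNA moved the median log2 fold change of all genes by -0.45 at 3 months, where it was then -0.49, and by -0.29 at 18 months, where it was then -0.32. The members' medians were then 3.02 and 3.76, and 41 members rose at each age. Kif22, Mad2l1 and Spag5 lost their calls at both ages where they had one.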

How the data were processed

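The authors deposited, for each of 24 QuantSeq 3′ libraries made from 400 ng of total RNA per the labels' protocols, raw counts of reads per gene and a normalised signal that was not used here. Per the submitters' processing notes the tools were Trimmomatic, HTSeq and DESeq2 on GRCm38. The aligner, the annotation and the strand setting were not given in the sources used here. Reads aligning to several places stayed out of the counts, which lowers genes with close copies. Spike-ins, 4.43% to 10.5% of counts, and the 5 summary lines were kept out of the library sizes.

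All 24 libraries entered 1 edgeR 4.0.16 model (R 4.3.3, limma 3.58.1) of the 4 group means. It used TMM scaling, the default filter (minimum count 10), robust dispersions and two-sided quasi-likelihood F tests, with Benjamini-Hochberg adjustment over 14599 genes; 32384 were untested. The biological coefficient of variation was 0.207. Alternatives used other scalings, no filter, DESeq2 1.42.0, limma-voom, a replicate block and fits without single or several libraries. The test recovered known changes in counts simulated from the model's own dispersions and mean levels. That does not show how it performs for members with few control counts. Intervals on ratios of pooled counts are exact at 95% and cover counting error only, as the reads carry no molecular identifiers.

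Sampling noise did not account for the differences in any of 60 library pairs within groups (chi-square per degree of freedom 3.19 to 69.8), so none was treated as a copy. The labels name libraries A to F within a group and do not say that equal letters share an animal. Over 36 same-letter pairs, deviations from the group means correlated between -0.30 and 0.31, with 9 over 0.1.

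The members and the comparison lists were chosen with earlier results of these data known. Lowest, median and highest libraries are given for the member with the highest mean in each of 7 roles, those with the largest and smallest change, those not called after MCAO or not tested, and those called between ages. Of other lists, the first 3 genes and the 3 with the smallest p may be named, and genes outside this rule were chosen after their values were seen. Gene coordinates are from GENCODE M21 on GRCm38, and promoter windows from RefSeq on GRCm38.p6.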

Additional observations from a re-analysis of the deposited data

Results flagged for a closer look

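The 11 members described by their lowest, median and highest library were examined in 44 groups of 6 libraries and the summed level of all members in another 4, and 6 of these 48 groups held a library far from the others, its gap to the nearest exceeding 0.625 of the group's range. For independent groups of normally spread values, chance flags about 1 group in 20. CPM near 0, and members measured in the same libraries, need not follow that rate. Cdk1 stood at 95.7 CPM in library C of the 18-month MCAO mice, above the next at 64.6 CPM. In the same library Ccna2 stood at 25.2 CPM, above the next at 17.5 CPM. Ccna2 also stood at 13.2 CPM in library D of the 3-month MCAO mice, above the next at 10.2 CPM. The other 3 were in controls of 3 months. Kif23 stood at 4.23 CPM in library B (next 2.84 CPM), Pbk at 0.601 CPM in library C (next 0.184 CPM) and Cks2 at 0.543 CPM in library E (next 0.192 CPM), the last 2 on few counts.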

How the results depend on the processing

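The count of members that rose after MCAO stayed within 41 to 44 at 3 months and within 41 to 45 at 18 months over the 35 alternative settings, with 45 members tested under DESeq2 and without the filter, and 44 otherwise. No member was called between ages in controls under any of the 35, or in the difference of the MCAO effect under the 34 that could be fitted for it (a fit of only the groups compared does not exist for it, since it needs all 4 groups). Between 18 and 3 months after MCAO, where Ccna2 alone passed, limma-voom called 5 members, the fit without the 3-month MCAO libraries A and C called 5, that without the 18-month MCAO libraries C, E and F called 0, and that without control library D and MCAO library C of 3 months called 2. Leaving out 1 library gave 1 to 3 members, 3 without library C of the 3-month and 2 without library B of the 18-month MCAO mice. With a replicate block on the library letter, which the labels do not tie to animals, 43 members rose at 3 months and 43 at 18 months, and 0, 1 and 0 were called in the other comparisons. Of single members, Kif22 lost its 3-month call in 17 settings and its 18-month call in 2, Spag5 lost its 18-month call in 12, and Mad2l1 lost a call in 1 setting at 3 months and in 2 at 18 months. The cause was not tested. Depth limits members with few control counts, whose folds have wide intervals.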
